A study of Caenorhabditis elegans with 6 samples.

Results

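The genes described here make, assist or read methylation of lysine 9 on histone H3 (H3K9), or hold the methylated chromatin at the nuclear edge, in *Caenorhabditis elegans*. They are the 10 genes *met-2*, *set-25*, *set-32*, *lin-61*, *cec-4*, *hpl-1*, *hpl-2*, *lin-13*, *lin-65* and *arle-14*, chosen by name, and all 10 were found by identifier among the 20392 genes of the count table. Sequencing covered total RNA of larvae of the first stage (L1) in 6 libraries, 3 of strain N2, the wild type, and 3 of strain XA6227, labelled *mrg-1* -/-, in which the chromodomain protein gene *mrg-1* is mutated. Per the labels, 2000 to 4000 homozygous mutant mothers without the balancer were picked by hand for their eggs, whereas about as many N2 mothers were rinsed from plates, so picking and genotype cannot be told apart. Embryos of both strains hatched in buffer over 18 h and fed for 2 h and 30 min. The RNA input was 2 ng for every library. RNA was taken from whole larvae, so fewer cells of a type and less RNA per cell cannot be told apart in any value given here.

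In worms, MET-2 adds the first methyl groups to H3K9 and SET-25 adds the last one. Proteins with a chromodomain or MBT repeats bind the methylated histone, and CEC-4, one of these readers, sits at the inner nuclear membrane and tethers methylated chromosome arms there in embryos. MRG-1 is a chromodomain protein of active chromatin that acts beside CEC-4 in keeping heterochromatin at the nuclear edge of differentiated intestinal cells. The comparison asked which transcripts depend on *mrg-1* at this stage. For these 10 genes it shows the RNA level of the H3K9 machinery and says nothing of the histone mark itself.

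The libraries held 19238422 to 39063186 counts. The share of mitochondrially encoded genes was 10.64%, 23.12% and 45.56% in N2 libraries 1, 2 and 3, against 8.42% to 12.43% in the mutant. The wild-type libraries were less alike than the mutant ones: log2 CPM (counts scaled to a common library size, with TMM factors for differences in composition) correlated across genes at 0.860 to 0.888 among the wild-type libraries and at 0.928 to 0.940 among the mutant libraries. The *mrg-1* transcript fell 5.04-fold on the means, from 21.6 ± 7.57 to 4.29 ± 1.90 CPM (SD, n = 3 each; edgeR quasi-likelihood test, adjusted p = 0.0413), with every mutant library below every wild-type one. Its call was lost without wild-type library 1 or 2 or any mutant library (edgeR adjusted p up to 0.181). Markers of muscle, intestine, pharynx, neurons and hypodermis were present in both groups. The summed embryo markers reached at most 1.83 CPM in N2 and 2.03 CPM in the mutant, with *pes-10* and *tbx-38* at 0 in all 6 libraries.

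All 10 genes passed the filter on low counts, and 0 of the 10 passed the test in either direction. The transcripts of the H3K9 trimethylase *set-25*, the MBT-repeat reader *lin-61* and the nuclear-edge anchor *cec-4* stood apart from the others. Each was lower in all 3 mutant libraries than in any wild-type library, as were 12% of all genes tested. The mutant means of *set-25*, *lin-61* and *cec-4* were 2.57-fold, 2.26-fold and 3.25-fold below the wild-type means. Wild-type library 3 was the highest in each. Without it their log2 fold changes went from -1.36 to -0.83, from -1.18 to -0.76 and from -1.70 to -1.08. The transcripts of the methyltransferase *met-2*, its cofactor *lin-65* and the zinc-finger protein gene *lin-13* overlapped between the groups, with wild-type means no more than 1.16-fold above the mutant ones. Among all 13460 genes tested, 2.6% were called at an adjusted p under 0.05 (edgeR quasi-likelihood test, Benjamini-Hochberg), 1.75% higher and 0.847% lower in the mutant. At an unadjusted p under 0.05, 4 of the 10 genes were lower, *set-25*, *cec-4*, *lin-61* and *hpl-2*, against 10.2% of all genes tested. With DESeq2 in place of edgeR, 2 of the 10 were called, *set-25* and *cec-4*, both lower. DESeq2 called 10.1% of the genes to which it gave an adjusted p (4.83% lower). Limma on voom weights called 0 of the 10, against 2.72% of all genes tested.

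**Figure D1:**
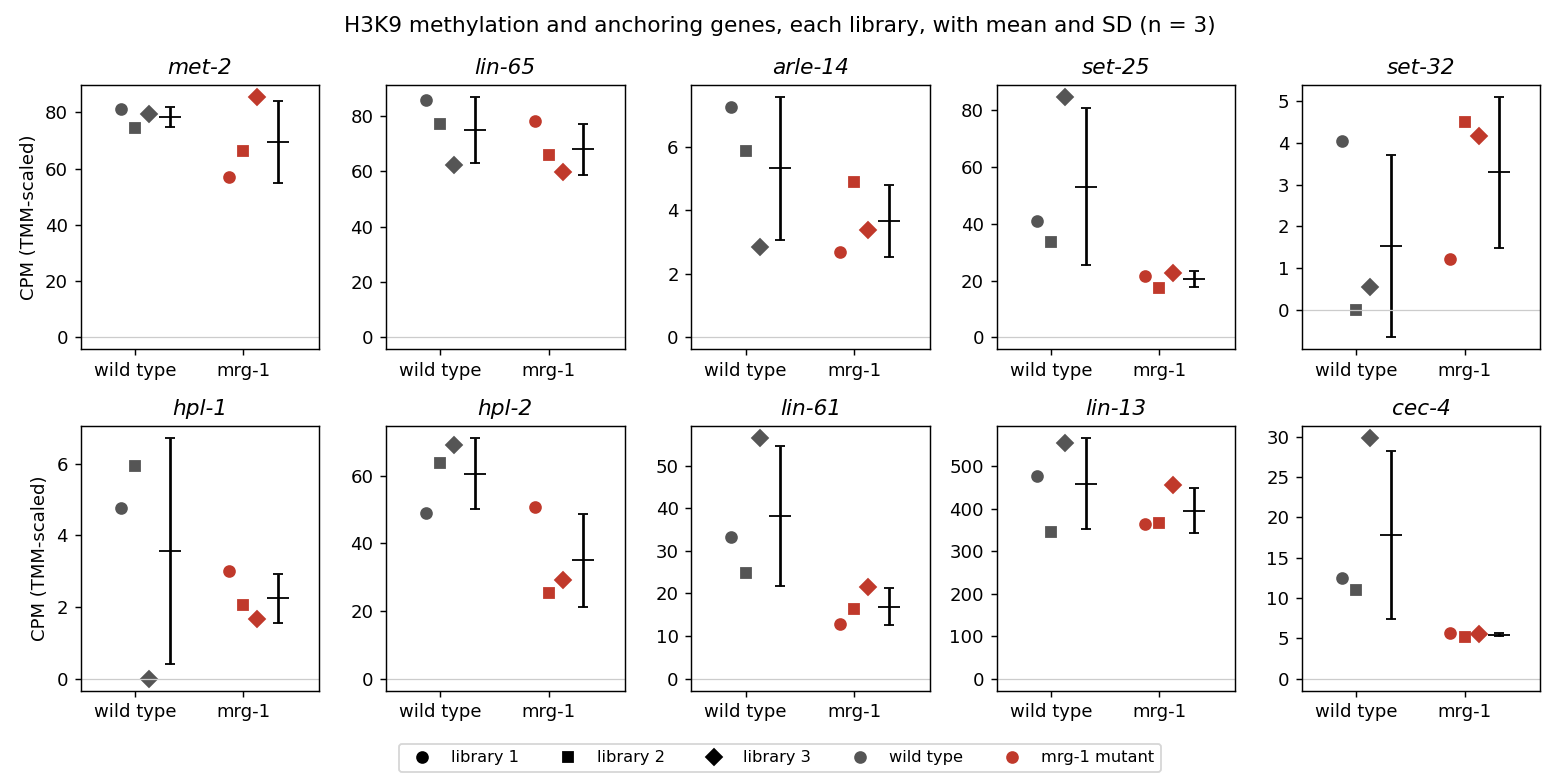
TMM-scaled CPM (vertical axis, linear, from 0) of each of the 10 genes in the 3 wild-type (grey) and 3 *mrg-1* mutant (red) libraries; symbols give the library number, and the bar beside each group is the mean with its SD. For *set-25*, *lin-61* and *cec-4* every mutant point lies below every wild-type point, and wild-type library 3 is the highest point in each; *hpl-1* and *set-32* have a wild-type library at 0.

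The methyltransferase *met-2* encodes the worm relative of SETDB1, which mono- and dimethylates H3K9. *met-2* gave 81.1, 74.3 and 79.5 CPM in N2 and 56.9, 66.3 and 85.4 CPM in *mrg-1* larvae. The wild-type libraries were nearly level with one another, with an SD of 0.07 on the log2 scale against a median of 0.72 over all genes tested, and the mutant libraries lay on both sides of them. The means were 78.3 ± 3.53 and 69.5 ± 14.6 CPM (SD, n = 3 each), a log2 fold change of -0.17 (SE 0.29) with a 95% interval from -0.80 to 0.46, that is, from 0.572 to 1.38 times the wild-type level. The sign was not fixed by the data, since scaling to library totals or using the deposited log2 values gave 0.13 in both cases.

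Both genes of proteins known to work with MET-2 in the nucleus also overlapped between the groups. *lin-65* encodes a largely disordered protein that MET-2 needs to gather in nuclear foci. It stood at 85.8, 77.0 and 62.3 CPM in N2 and at 78.1, 66.0 and 59.8 CPM in the mutant, with most of the values shared. Its log2 fold change was -0.14 (SE 0.29, 95% interval -0.78 to 0.49), and it was 0.12 under library totals and 0.18 in the deposited log2 values. *arle-14*, the worm relative of human ARL14EP and a further MET-2 partner, had lower levels, 7.25, 5.87 and 2.85 CPM against 2.69, 4.91 and 3.38 CPM. Wild-type library 3 lay among the mutant libraries, and the interval of the log2 fold change ran from -2.05 to 0.97, so that neither a fall nor a rise could be told at 69 to 160 counts per library. None of these 3 genes of the MET-2 module was called.

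*set-25* encodes the trimethylase that acts after MET-2 and is itself found at the nuclear edge. The gene is on chromosome III, minus strand, 13283824 to 13293090 in WBcel235, and shares 64 exonic bases with the syntaxin gene *unc-64* on the other strand. *set-25* gave 40.8, 33.6 and 84.7 CPM in N2 and 21.5, 17.6 and 22.8 CPM in *mrg-1* larvae. The highest mutant library was below the lowest wild-type library, and wild-type library 3 was more than the sum of the other 2. The log2 fold change was -1.36 (SE 0.40, 95% interval -2.24 to -0.48), with an unadjusted p of 0.00533 that did not pass over all genes (edgeR adjusted p = 0.0903; DESeq2 0.0207). Without wild-type library 3 it was -0.83 (edgeR adjusted p = 0.221). The gene with which it shares bases, *unc-64*, had a log2 fold change of 0.18 (edgeR adjusted p = 0.796).

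*cec-4* encodes the anchor itself. The gene is on chromosome IV, plus strand, 7575718 to 7577326 in WBcel235, and shares 141 exonic bases with *F32E10.5* on the other strand. Its deposited length of 978 bases equals the annotated 1119 exonic bases less the shared 141, while the way reads there were counted is not given. *F32E10.5* stood at 8.84, 6.49 and 3.83 CPM in N2 and at 0.312, 2.97 and 2.55 CPM in *mrg-1* larvae, wholly below as well (log2 fold change -1.71, edgeR adjusted p = 0.298), and its part in the values of *cec-4* was not tested. Divided by gene length in kilobases (RPKM), the level of *cec-4* was 12.8, 11.25 and 30.5 in N2 libraries 1 to 3. In mutant libraries 1 to 3 it was 5.78, 5.31 and 5.68. The means of *cec-4* were 17.8 ± 10.5 CPM in N2 and 5.47 ± 0.242 CPM in the mutant (SD, n = 3 each). The mutant libraries differed by a factor of only 1.09 from lowest to highest, against 2.71 among the wild-type libraries, of which library 3 was again the highest. Its log2 fold change of -1.70 (SE 0.52, 95% interval -2.84 to -0.56) was the most negative of the 10 genes (edgeR adjusted p = 0.101; DESeq2 0.0187). Without wild-type library 3 it was -1.08 (edgeR adjusted p = 0.268), and against wild-type library 1 alone -1.18.

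*lin-61* encodes a protein of MBT repeats that binds methylated H3K9 and belongs to the synMuv B genes, which act in vulval development. *lin-61* gave 33.3, 24.8 and 56.5 CPM in N2 and 12.8, 16.3 and 21.6 CPM in the mutant. The groups did not overlap, and the nearest pair of libraries, wild-type 2 and mutant 3, were close to each other. The log2 fold change was -1.18 (SE 0.41, 95% interval -2.07 to -0.28; edgeR adjusted p = 0.141, DESeq2 0.0616), and -0.76 without wild-type library 3. In all, 3 of the 10 genes had mutant libraries wholly below the wild-type ones, against 12% of all genes tested, and 0 had them wholly above, against 14.4%. Groups that did not overlap in either direction made up 26.4% of all genes tested. The log2 fold change was below 0 for 9 of the 10 genes, against 51.3% of all genes tested. It was below 0 for 6 of the 10 under library totals, against 38.1% of all genes, and for 5 in the deposited log2 values, against 34.4%.

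The levels of *set-25*, *cec-4* and *lin-61* followed each other closely over the 6 libraries. On log2 CPM, Pearson's r was 0.991 between *set-25* and *cec-4*, 0.948 between *set-25* and *lin-61* and 0.940 between *cec-4* and *lin-61*, over 6 libraries that share depth and scaling. Of the 13460 genes tested, 3 were closer to *set-25* than *cec-4* was, and 79 were closer to it than *lin-61* was. *set-25*, *cec-4* and *lin-61* were singled out by their pattern in these same 6 libraries. That choice favours high correlations among them, so these ranks are not separate evidence of a link. All 3 genes were highest in wild-type library 3, which also had the most mitochondrial counts (45.56%), and the part of that share in these values was not tested. With mitochondrial genes left out of the library sizes the log2 fold changes of *set-25* and *cec-4* were -1.39 and -1.73. Against wild-type library 1 alone, whose mitochondrial share was 10.64%, those of *set-25*, *cec-4* and *lin-61* were -0.97, -1.18 and -0.96. In that last comparison the spread comes from the mutant libraries alone, and the lone wild-type library is assumed to vary like them.

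**Figure D2:**
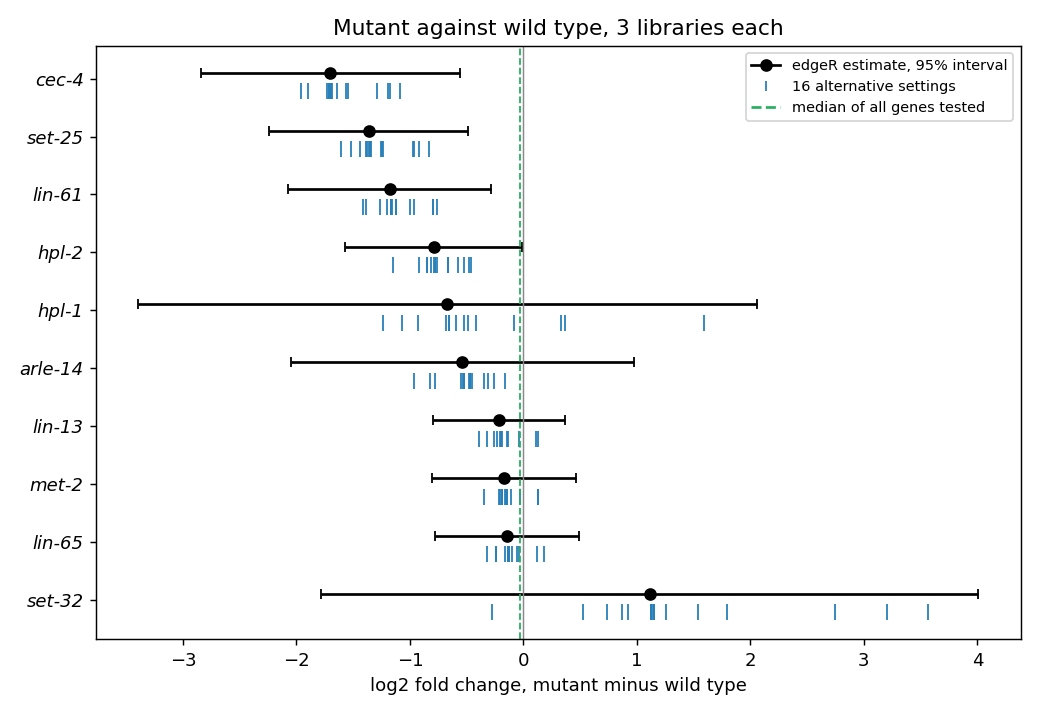
Log2 fold change, mutant minus wild type (horizontal axis), for each of the 10 genes: black points with bars are the edgeR estimates and their 95% intervals from 3 libraries per group, blue ticks the estimates under 16 other settings, and the dashed line the median of all genes tested (-0.03). For *cec-4*, *set-25*, *lin-61* and *hpl-2* every tick lies below 0, while ticks of *hpl-1*, *lin-13*, *met-2*, *lin-65* and *set-32* fall on both sides.

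The HP1 family has a pair of members in the worm, *hpl-1* and *hpl-2*, whose proteins bind methylated H3K9 through a chromodomain. *hpl-2* is the one with the broader known role in silencing and in vulval and germline development. It stood at 48.8, 63.7 and 69.1 CPM in N2 and at 50.7, 25.2 and 29.1 CPM in the mutant. Mutant library 1 lay within the wild-type range and the other mutant libraries at about the same low level, so the groups overlapped. Its log2 fold change was -0.79 (SE 0.36, 95% interval -1.57 to -0.01; edgeR adjusted p = 0.248). It was -1.15 without mutant library 1 (edgeR adjusted p = 0.262).

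*hpl-1* was much weaker, at 4.76, 5.94 and 0 CPM in N2 and 3.00, 2.06 and 1.65 CPM in the mutant. Its 99 and 162 counts in wild-type libraries 1 and 2 stood against 0 counts in library 3, which held 21267888 nuclear counts against 17191073 and 22267493 in libraries 1 and 2, and where a limit of 3 counts allows up to 0.11 CPM. Such a gap was uncommon: of the 13460 genes tested, 15 had 0 counts in wild-type library 3 and at least 50 in each of the other 2 wild-type libraries, against 1 for wild-type library 1 and 11 for library 2. The log2 fold change of *hpl-1*, -0.67 with an interval from -3.39 to 2.05, was positive in limma-voom (1.59), in the deposited log2 values (0.33) and with the replicate number in the model (0.37), so no direction can be given.

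*lin-13*, a synMuv B gene, encodes a large zinc-finger protein that joins HPL-2 and LIN-61 in one complex. It was the most strongly counted of the 10, at 477, 344 and 555 CPM in N2 and 364, 366 and 455 CPM in the mutant, with 8862 to 15206 counts per library. The mutant values lay inside the wild-type range. Its log2 fold change was -0.22 (SE 0.27, 95% interval -0.80 to 0.37), the narrowest of the 10 intervals, and turned to 0.11 under library totals and 0.12 in the deposited log2 values. *met-2*, *lin-61* and *hpl-2* are synMuv B genes as well. Among these and *lin-13* only *lin-61* had groups that did not overlap, as had 26.4% of all genes tested.

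*set-32* encodes a SET-domain protein that works with nuclear small RNAs in the germ line, and it was the one gene of the 10 with a positive log2 fold change. It stood at 4.04, 0 and 0.548 CPM in N2 and at 1.21, 4.50 and 4.17 CPM in the mutant. Wild-type library 1 was level with the highest mutant libraries, and wild-type library 2 had 0 counts, which allows up to 0.11 CPM. Its estimate of 1.11 (SE 1.34, 95% interval -1.78 to 4.01; edgeR adjusted p = 0.682) became 3.57 without wild-type library 1 and -0.28 against that library alone. The 10 germ-line markers summed to 114, 54.4 and 94.0 CPM in N2 and to 65.2 to 70.3 CPM in the mutant, so that wild-type library 2 was low in them as well as in *set-32*, while wild-type library 3 was above every mutant library in them and below every mutant library in *set-32*. Their part in the value was not tested.

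Levels of different genes were compared only after dividing CPM by the deposited gene length in kilobases (RPKM, TMM-scaled). On this scale the 10 genes covered a wide range in wild-type larvae. *lin-13* (63.4 ± 14.7 RPKM) and *hpl-2* (49.8 ± 8.63) were the highest and overlapped each other. They were followed by *lin-65* (28.0 ± 4.42), which lay below *hpl-2* and above *met-2* in all 3 libraries. It overlapped *set-25*, *cec-4* and *lin-61*, being below each of them in wild-type library 3. *set-25* (19.5 ± 10.1), *met-2* (18.8 ± 0.847), *cec-4* (18.2 ± 10.7) and *lin-61* (17.2 ± 7.39 RPKM; SD, n = 3 each) were next, and their order could not be told, since each overlapped its neighbour. The whole of this group stood above the median wild-type level of the genes tested, 8.36 RPKM. *arle-14* (6.21 ± 2.63), *hpl-1* (4.45 ± 3.92) and *set-32* (0.924 ± 1.32 RPKM) stood below it and overlapped in turn. All 3 libraries put *lin-61* above *arle-14*, and the ranges of these neighbours did not overlap. The 10 genes thus ran from percentile 12.41 to percentile 89.68 of the wild-type levels of the genes tested.

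**Figure D3:**
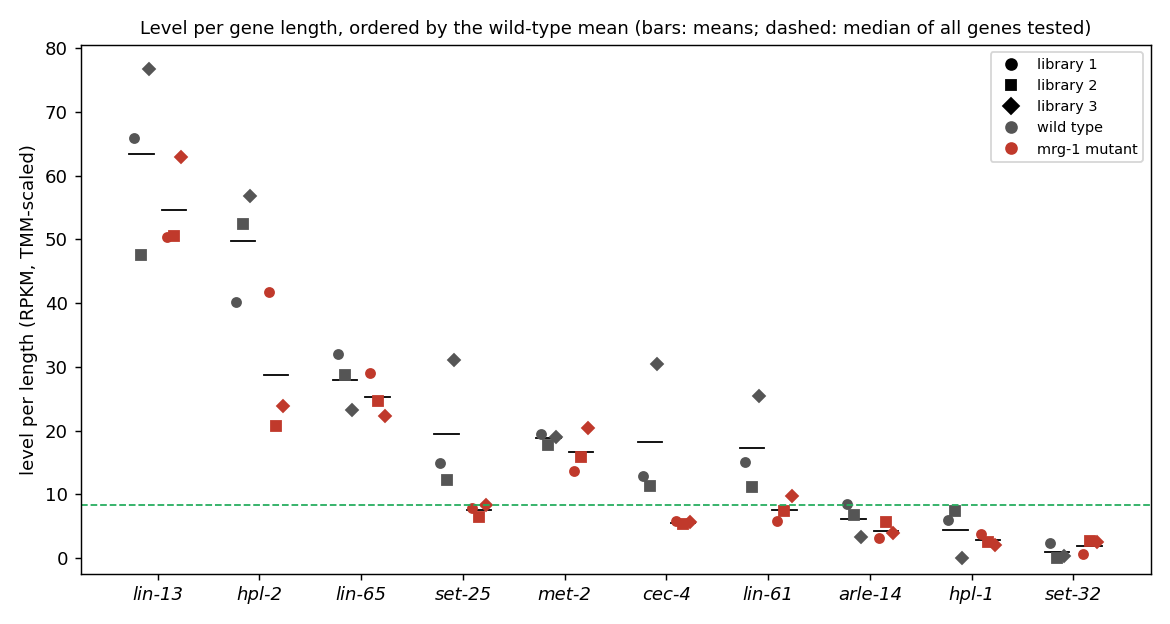
Level per gene length (vertical axis, linear, TMM-scaled RPKM) of the 10 genes in every wild-type (grey) and *mrg-1* mutant (red) library, ordered by the wild-type mean; short bars are the means and the dashed line the median wild-type level of all genes tested (8.36 RPKM). *met-2* stands above *set-25*, *cec-4* and *lin-61* in every mutant library and in wild-type libraries 1 and 2, and below them in wild-type library 3, which brings the 4 wild-type means close together.

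Within this middle group the mutant values were as follows. *met-2* stood at 13.6, 15.9 and 20.5 RPKM, while *set-25* stood at 7.89, 6.44 and 8.37 RPKM, *cec-4* at the values given above and *lin-61* at 5.79, 7.35 and 9.72 RPKM. *met-2* was above each of them in all 3 mutant libraries and also in wild-type libraries 1 and 2, where it stood at 19.45 and 17.8 RPKM and the highest of the others at 15.02 and 12.3 RPKM. Only in wild-type library 3 was it below each of them. Ratios between genes of the same library do not depend on how libraries are scaled. The ratio of *set-25* to *met-2* was 0.770, 0.692 and 1.63 in N2 and 0.579, 0.405 and 0.409 in the mutant, so that every mutant library lay below every wild-type one. The mean log2 ratio was -0.07 ± 0.67 and -1.13 ± 0.29 (SD, n = 3 each), a difference of -1.06 (two-sided exact permutation test, p = 0.1, the smallest that 3 against 3 can give). The ratio of *cec-4* to *met-2* was 0.659, 0.631 and 1.60 in N2 and 0.424, 0.334 and 0.277 in the mutant, a difference of -1.36 on the log2 scale (exact permutation p = 0.1).

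The other ratios overlapped between the groups. The ratio of *lin-65* to *met-2* was 1.65, 1.61 and 1.22 in N2 and 2.14, 1.55 and 1.09 in the mutant, a log2 difference of 0.05. That of *arle-14* to *met-2* differed by -0.29, that of *lin-61* to *hpl-2* by -0.28 and that of *lin-13* to *hpl-2* by 0.65 on the log2 scale. The exact permutation p values of these 4 ratios were 0.3 to 1. Over the 6 ratios, which were picked after the values were seen, the lowest Benjamini-Hochberg adjusted p of the exact permutation tests was 0.3. Of the summed RPKM of the 10 genes, *lin-13* made up 27.8% ± 3.12 in N2 and 35.2% ± 3.89 in the mutant, and *cec-4* 7.70% ± 3.24 and 3.61% ± 0.12 (SD, n = 3 each). The shares of both, and that of *set-25* (8.29% ± 2.93 and 4.86% ± 0.31), did not overlap between the groups. The larger share of *lin-13* stood beside a lower mean level of its own, with overlapping groups (63.4 ± 14.7 and 54.6 ± 7.22 RPKM), and a lower sum of the 10 genes, 195.5 to 266.5 RPKM in N2 and 142 to 162 RPKM in the mutant.

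**Figure D4:**
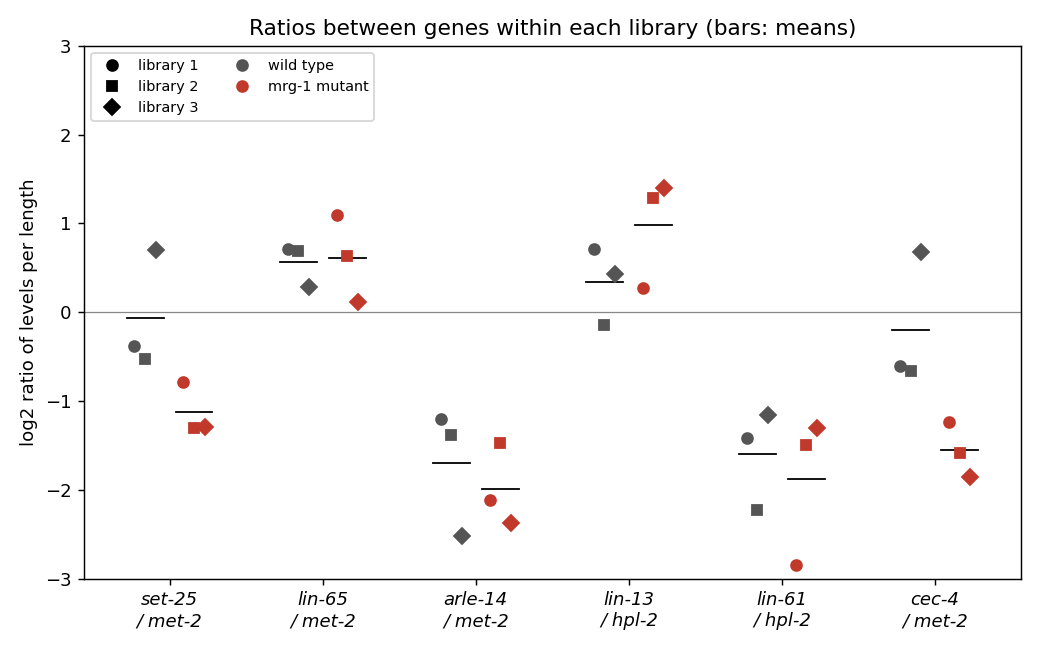
Log2 ratio of levels per length (vertical axis) for 6 pairs of genes within each wild-type (grey) and *mrg-1* mutant (red) library, with means as short bars. The ratios of *set-25* and *cec-4* to *met-2* are lower in every mutant library than in any wild-type one, and the other 4 overlap.

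Of 42 further genes of the pathway, 41 were tested and 2 fell in the mutant, *mrg-1* itself, whose fall is that of the mutated gene, and the histone deacetylase gene *hda-1*, while 0 rose. Without *mrg-1*, 1 of 40 was called, against 2.6% of all genes tested (0.847% lower and 1.75% higher). *hda-1* stood at 217, 411 and 391 CPM in N2 and at 142, 113 and 135 CPM in the mutant, wholly below, with a log2 fold change of -1.39 (SE 0.30, edgeR adjusted p = 0.0373). Its call was lost without wild-type library 2 or 3 or any mutant library (edgeR adjusted p = 0.0514 to 0.182), against wild-type library 1 alone (log2 fold change -0.72), under library totals and in the deposited log2 values. The median log2 fold change was -0.46 over the 40 genes without *mrg-1* and -0.60 over the 10 described here, against -0.03 over all genes tested. Under library totals the median of all genes was 0.27 and that of the 10 genes -0.39, and in the deposited log2 values they were 0.35 and -0.02. In each of these scalings 9 of the 10 lay below the median of all genes.

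The pathway genes with the next smallest p values were not called. *ulp-1*, a SUMO protease gene, stood at 89.3, 94.4 and 169 CPM in N2 and at 38.7, 48.7 and 54.6 CPM in the mutant (log2 fold change -1.31, edgeR adjusted p = 0.0595). *hrde-1*, the Argonaute gene of inherited nuclear RNAi in the germ line, stood at 52.6, 93.0 and 77.9 CPM against 17.6, 34.5 and 30.5 CPM (-1.44, edgeR adjusted p = 0.0602). Both were wholly below in the mutant. *ubc-9*, which encodes the SUMO-conjugating enzyme, had a log2 fold change of -0.83 and *amx-1*, of the amine oxidase family, -1.55 (edgeR adjusted p = 0.133 and 0.173), and these groups did not overlap either. Libraries wholly below were found for 10 of the 40 genes, against 12% of all genes tested.

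Within that list 0 of 5 tested H3K9 demethylases and relatives, 0 of 6 other SET-domain genes, 0 of 7 other chromodomain genes, 0 of 5 nuclear RNAi genes, 0 of 7 lamina and inner membrane genes and 0 of 6 SUMO genes were called (edgeR), against 2.6% of all genes tested. At an unadjusted p under 0.05 these groups had 1, 0, 0, 1, 2 and 2 lower genes and 0 higher ones, against 10.2% lower and 9.29% higher among all genes tested. The lamin gene *lmn-1* stood at 383, 345 and 426 CPM in N2 and 343, 405 and 359 CPM in the mutant, nearly level, and the emerin gene *emr-1* at 30.8, 51.6 and 45.9 CPM against 27.5, 24.5 and 16.1 CPM (edgeR adjusted p = 0.198). *cbp-1*, the acetyltransferase gene of the p300 family, overlapped between the groups at 571, 297 and 348 CPM and 502, 495 and 583 CPM. The pathway genes whose log2 CPM followed *met-2* most closely over the 6 libraries were *uba-2*, of the SUMO-activating enzyme (Pearson's r = 0.977), *samp-1*, of an inner nuclear membrane protein (0.758), and *cec-5*, of a chromodomain protein (0.742). These are the top of the list over only 6 libraries, and a link was not tested. At the other end *lem-2* had an r of -0.939. *uba-2* had only 42 to 105 counts per library.

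Summed levels of tissue markers were set beside these values. The 8 body wall muscle markers summed to 6731 to 10370 CPM in N2 and 12360 to 15020 CPM in the mutant, and the 8 hypodermis markers to 288 to 437 and 227 to 249 CPM, neither sum overlapping. Of the muscle markers 0 were called (edgeR), against 2.6% of all genes tested. *myo-3*, *unc-15* and *mup-2* were wholly above in the mutant, as were 14.4% of all genes tested, and the other 5 of the 8 overlapped. The hypodermis sum rested on *lin-26*, *nhr-25* and *elt-3*, none called; 4 of the 8 were too low to test, and the collagen gene *rol-6* rose, from 0 in all N2 libraries to 2.69, 1.57 and 2.59 CPM (edgeR adjusted p = 0.0284). The 8 intestine markers (1112 to 4121 and 2549 to 3987 CPM), the 7 pharynx markers (1012 to 3474 and 2822 to 3686 CPM) and the 8 neuron markers (1446 to 1744 and 1580 to 1843 CPM) overlapped. Intestine and pharynx sums were lowest in wild-type library 3, where *set-25*, *cec-4* and *lin-61* were highest. The 8 oocyte and yolk markers summed to 10.8 to 25.2 CPM and 5.11 to 10.6 CPM, and the 7 sperm markers to 0.240 to 0.438 and 1.92 to 3.63 CPM, with *msp-19* and *msp-56* at 0 in all 6 libraries. These sums did not overlap between the groups either. The oocyte gene *cpg-2* was called lower, at 7.06, 3.78 and 14.05 CPM in N2 and 0.195, 0 and 0.451 CPM in the mutant (edgeR adjusted p = 0.0373). *cpg-1* lay lower too, at 8.0, 6.5 and 6.7 CPM in N2 and 2.0, 3.5 and 1.6 CPM in the mutant, but was not called (edgeR adjusted p = 0.228). In the same list *vit-6* and *rme-2* had higher mutant means, neither called. *vit-3* and *vit-4* had higher mutant means as well but were too low to test. Of the sperm markers only *spe-9* was tested, and it was not called (edgeR adjusted p = 0.195). It stood at 0.240, 0.037 and 0.438 CPM in N2 and 2.38, 1.57 and 1.465 CPM in the mutant. The sperm sum rested mainly on *spe-9* and, in mutant library 2, on *gsp-4* (1.98 CPM). The part of tissue make-up in the values of the 10 genes was not tested.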

How the data were processed

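The authors deposited raw counts for 20392 genes with a length in bases for each, and a table of log2 values. Recomputed here, a deposited log2 value equals the log2 of a count scaled to 24838462 counts per library plus 8. Per the submitters' processing notes the genome build was ce10; aligner, counter and strand setting are not given, so genes that overlap others are uncertain. Symbols and positions were looked up by identifier in Ensembl's WBcel235 annotation, another build, and not converted. The members and lists were chosen with earlier results of these data known.

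Counts were tested with edgeR 4.0.16 in R 4.3.3: TMM factors, the default filter (13460 genes kept), a quasi-likelihood F test with no term but group, and Benjamini-Hochberg adjustment at 0.05. Standard errors are the absolute log2 fold change over the square root of F. CPM and RPKM are TMM-scaled, and correlations used log2 CPM with a prior count of 2. The fit was tested on simulated data. The series' design text calls the samples biological replicas, and all pairs differed by more than sampling noise. Floors cover counting error only, not molecules lost before sequencing from the 2 ng of RNA. Named were the 10 genes, *mrg-1*, called pathway genes, the 4 uncalled ones of smallest p, the 3 most like *met-2*, and genes that small counts refer to; *unc-64*, *lmn-1*, *emr-1* and *cbp-1* were added after their values were seen. Other scalings and filters, DESeq2 1.42.0, limma 3.58.1, a replicate block, and fits without mitochondrial genes or single libraries served as alternatives. Sample columns left unmapped numbered 0. Figures were drawn with matplotlib 3.10.9.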

Additional observations from a re-analysis of the deposited data

How the results depend on the processing

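With 3 libraries per group and a common dispersion of 0.339, absence of a call does not show that a level was equal. The 350 genes called in edgeR became 215 under library totals, 734 without a filter and 1330 in DESeq2, and 35 to 1043 when 1 library was left out. Of the 10 genes, 2 were called in DESeq2, against 10.1% of the genes to which it gave an adjusted p. The other alternatives with more than 1 library per group called 0 of the 10, leaving out any 1 library included. In these, 0.249% to 7.32% of all genes tested were called. The pathway list, with 2 calls, had 0 under library totals and in limma on the deposited log2 values, 4 without a filter and in DESeq2, 1 against wild-type library 1 alone, and 0 to 4 when 1 library was left out; the calls beyond *mrg-1* and *hda-1* were *hrde-1* and *ulp-1*, and, without wild-type library 1, *set-9*. For *mrg-1* the value of -2.33 was no longer called under library totals (-2.06), in the deposited log2 values (-1.997) or without wild-type library 1 or 2 or any mutant library (-2.54 to -1.99 over the libraries left out). Signs turned for *met-2* (0.13 under library totals, 0.13 in the deposited log2 values), *lin-13* (0.11 and 0.12), *lin-65* (0.12 and 0.18), *hpl-1* (1.59 in limma-voom, 0.33 in the deposited log2 values, 0.37 with the replicate block) and *set-32* (-0.28 against wild-type library 1 alone), none of them called; the cause was not tested. *set-25*, *cec-4*, *lin-61*, *hpl-2* and *arle-14* were negative in all 16 alternatives, from -1.61 to -0.83, -1.96 to -1.08, -1.42 to -0.76, -1.15 to -0.46 and -0.97 to -0.16.

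With the replicate number as a block edgeR called 431 genes (3.2% of those tested), 0 of the 10 and 4 of the pathway list. Same-numbered libraries deviated from their group means with correlations of -0.005, 0.043 and 0.093, and 3 of 6 libraries correlated best with their own number. With 3 libraries per group this cannot show whether same-numbered libraries shared a preparation or batch.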
